A study of Mus musculus with 28 samples.

Results

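iG+P is a mouse embryonic stem cell line in which doxycycline (Dox) switches on Gfi1 and Pou4f3 together, with no Atoh1 transgene. It was compared with itself in 4 of the 28 libraries of the series, chosen by their labels: 2 libraries of Dox-treated cells and 2 of untreated (No Dox) cells. All 7 lines of the series derive from A2loxCre cells and carry 1 polycistronic cassette at a single recipient locus, in which the factors and the nuclear fluorescent protein mVenus are joined by 2A peptides. The cells were differentiated as embryoid bodies (EBs), free-floating aggregates in which cells of all germ layers arise. Dox libraries came from EBs given Dox at 2 µg/ml for 48 h and collected at day 6, after which the mVenus+ cells were sorted by flow cytometry. No Dox libraries came from whole, unsorted EBs at day 6. Dox exposure and sorting therefore differ together between the groups and cannot be told apart. The 2 replicates of a group are described as different clones. The p-values below use the spread between replicate libraries pooled over the 14 groups of the 7 lines, not that of the iG+P clones alone. The main fit did not pair libraries by replicate number. The other lines used here are iGfi1 and iPou4f3, with a single factor each, iG+A, with Gfi1 and Atoh1, iGPA, with all 3 factors, and, among the untreated libraries and in the plot of effects by line, iAtoh1, with Atoh1 alone, and iP+A, with Pou4f3 and Atoh1. Each of these was sampled in the same way, with 4 libraries.

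Gfi1 is a zinc finger repressor that recruits chromatin-modifying complexes to genes with its motif, and it is needed for the survival of inner ear hair cells and for blood cell development. Pou4f3 is a POU homeodomain activator that is needed for hair cells to mature, and close relatives of it specify sensory neurons. Atoh1, a basic helix-loop-helix (bHLH) factor, starts hair cell differentiation in the embryo. Hair cells turn sound and head movement into electrical signals with a bundle of actin-filled stereocilia, whose tips are joined by cadherin links to the mechanotransduction channel, and they release glutamate at ribbon synapses.

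The 4 promoter stretches below are shown because each belongs to a hair cell gene that passed the test in iG+P and holds a match to a motif of 1 of these 3 factors. The motifs searched, on both strands, were TAATTAAT for POU4 factors, AAATCAC for Gfi1 and the Atoh1 motif AtEAM. They do not overlap in these stretches, which are RefSeq sequences upstream of the annotated start of each gene, placed by exact match in the NCBIM37 genome, outside annotated exons. Capitals mark the motif.
Nhlh1, chr1:173987878-173987977, minus strand, AtEAM: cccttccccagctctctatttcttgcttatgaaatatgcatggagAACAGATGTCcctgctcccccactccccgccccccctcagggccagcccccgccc
Barhl1, chr2:28768016-28768115, minus strand, AAATCAC: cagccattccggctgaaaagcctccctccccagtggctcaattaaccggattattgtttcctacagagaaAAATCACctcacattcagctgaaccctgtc
Atp2b2, chr6:113884737-113884836, minus strand, AAATCAC: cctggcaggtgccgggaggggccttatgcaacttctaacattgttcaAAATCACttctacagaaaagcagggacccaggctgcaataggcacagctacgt
Smpx, chrX:154136655-154136754, plus strand, TAATTAAT on the opposite strand: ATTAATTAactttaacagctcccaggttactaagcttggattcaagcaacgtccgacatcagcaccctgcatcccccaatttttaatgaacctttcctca
Of 43 members of the hair cell lists described below that passed the test in either direction, 29 had a promoter window that was searched, and these 4 held a match in the 250 bases before the start. In those 250 bases 0.459% of the windows of all tested genes held TAATTAAT, 1.94% AAATCAC and 1.27% AtEAM. Over the whole 300-base windows, which add 50 bases after the start, 0.483% held TAATTAAT, 2.22% AAATCAC and 1.51% AtEAM. The shares were 0.83%, 2.25% and 2.49% in 843 windows of genes that rose in iG+P, and 0.243%, 3.52% and 1.82% in 824 windows of genes that fell. A match is a string of letters in a window and was not tested as a binding site.

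The deposited values are log2(normalized count + 1), and levels are given below as normalized counts. Sums of normalized counts in the 4 iG+P libraries were 36.8 to 40.2 M, and the depth estimated from the smallest steps in the values was 35.1 to 39.2 M reads, within the 30.3 to 48.0 M of the series. Changes are log2 differences of (normalized count + 1), Dox minus No Dox, with the standard error (SE) and the Benjamini-Hochberg adjusted p of a limma fit over all 28 libraries. A gene passed the test, and is said to have risen or fallen, when its adjusted p was under 0.05 and its change was at least 1.5 on the log2 scale. The median change of all 16837 genes tested was 0.003. Abundant immediate early genes, which respond to handling, were higher in replicate 2 of both groups: Egr1 stood at 6543 and 19067 in the No Dox libraries and at 4579 and 19833 in the Dox libraries. The embryonic globin Hbb-bh1 followed the same split by replicate, with 45574 and 93797 without Dox and 11770 and 40645 with it.

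Pou4f3 and Gfi1, the genes under Dox control, rose as the labels state. Pou4f3 (chromosome 18, 42554251 to 42555747 in NCBIM37) stood at 22.6 and 45.3 in the No Dox libraries and at 17590 and 19883 in the Dox libraries, a change of 9.14 (SE 0.46, adjusted p = 1.24e-10). Gfi1 (chromosome 5, 108145674 to 108155056) stood at 57.9 and 76.8 without Dox and at 10729 and 12487 with Dox, a change of 7.42 (SE 0.25, adjusted p = 1.25e-12). The Dox and No Dox libraries were far apart for both genes, and reads of the transgene and of the endogenous gene are counted together. Atoh1 (chromosome 6, 64679140 to 64681227), which has no transgene in this line, stood at 4.11 and 3.02 without Dox and at 32.5 and 24.8 with Dox. Its change of 2.70 (SE 0.33, adjusted p = 4.88e-06) passed the test. The induced level of Atoh1 was within the range of the 14 untreated libraries of the 7 lines, where it ran from 3.02 to 120 with a median of 34.4, highest in lines that carry an Atoh1 transgene. Against those 14 libraries its change in iG+P was 0.21 (adjusted p = 0.89).

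Genes differed in both directions between Dox and No Dox: 868 rose, which is 5.16% of the genes tested, and 902 fell, 5.36%. Sncg (chromosome 14, 35183460 to 35187975), which encodes gamma-synuclein of sensory neurons, stood at 10.2 and 18.1 without Dox and at 6300 and 8684 with Dox, a change of 8.98 (SE 0.37, adjusted p = 1.01e-11). After Pou4f3 this was the largest rise among named genes with at least 50 normalized counts. Of the 15 largest rises below the transgenes, 7 were in genes listed at 0 in both No Dox libraries, for which no fold is given. With Dox, Lrrc4, a leucine-rich repeat protein of excitatory synapses, stood at 396 and 426, the growth hormone gene Gh at 343 and 476, and the neuronal membrane protein gene Lrrn3 at 196 and 430. The Paneth cell defensins Defa5 and Defa35 stood at 116 and 145, and at 92.7 and 101, and Rtl5, a retrotransposon-derived gene, at 115 and 107. Pcdhgb2 stood at 524 and 286 with Dox, but it shares exons with the other genes of its protocadherin cluster and the estimate is uncertain. Genes were named here only if the groups were separate. Both Dox libraries were thus above both No Dox libraries for each of these 7 genes, by selection.

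The other 7 of these rises were measured in at least 1 No Dox library. Ces1d, a carboxylesterase, rose from 2.04 and 1.00 to 557 and 787, a change of 8.07 (SE 0.80, adjusted p = 4.35e-07). The long non-coding RNA Miat rose from 20.4 and 40.1 to 6098 and 6438, a change of 7.72 (SE 0.60, adjusted p = 2.58e-08). Cdcp2 rose by 7.52, the modulatory potassium channel subunit gene Kcnv1 by 7.47, the neuronal pentraxin gene Nptx1 by 7.07, the glutamate transporter gene Slc17a8 by 6.95 and the complement component gene C1qb by 6.81. Their levels did not overlap between the groups, again by selection.

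The largest falls did not reach the size of the largest rises. Plac1, a placental gene, went from 1986 and 1306 without Dox to 25.8 and 35.4 with Dox, a change of -5.69 (SE 0.39, adjusted p = 5.69e-09). Nxf7 went from 1591 and 1310 to 24.3 and 48.6 (-5.35, SE 0.34) and Spin2c from 6021 and 4224 to 155 and 146 (-5.06, SE 0.33). Hoxb6, a homeobox gene of the trunk, went from 546 and 397 to 10.8 and 9.72 (-5.37, SE 0.86), and Hoxc8 from 580 and 417 to 23.6 and 14.1 (-4.68, SE 0.41). Tcp11x2, the chemokine gene Cxcl14, Kctd12b, the lipid transporter gene Abca8b, the zinc finger gene Zfp689, the neurotensin receptor gene Ntsr1 and the glycerol phosphate acyltransferase gene Gpat3 fell by 5.43, 5.08, 5.03, 4.78, 4.74, 4.71 and 4.63. In each of these genes both Dox libraries were below both No Dox libraries, which the choice of genes required. The other 3 falls are uncertain. Pcdhga7 (-6.25) and Pcdhac2 (-6.23) share exons with other protocadherins, and 9130019O22Rik was listed at 0 in both Dox libraries, from 106 and 62.2 without Dox. The call of 9130019O22Rik was lost without Dox replicate 1 (adjusted p = 0.055), Dox replicate 2 (0.056) or No Dox replicate 1 (0.076), and that of Pcdhga7 without Dox replicate 2 (0.087).

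Hair cell genes rose without an Atoh1 transgene. Of 116 genes in the 4 hair cell lists that the table holds, 109 passed the filter on low values, 41 of these rose and 2 fell, against 5.16% and 5.36% of all genes tested. Their median change was 0.73 (0.707 without a gene listed at 0 in a whole group) against 0.003 over all genes. Of the 4 lists, the median change was highest for links and mechanotransduction.

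**Figure D1:**
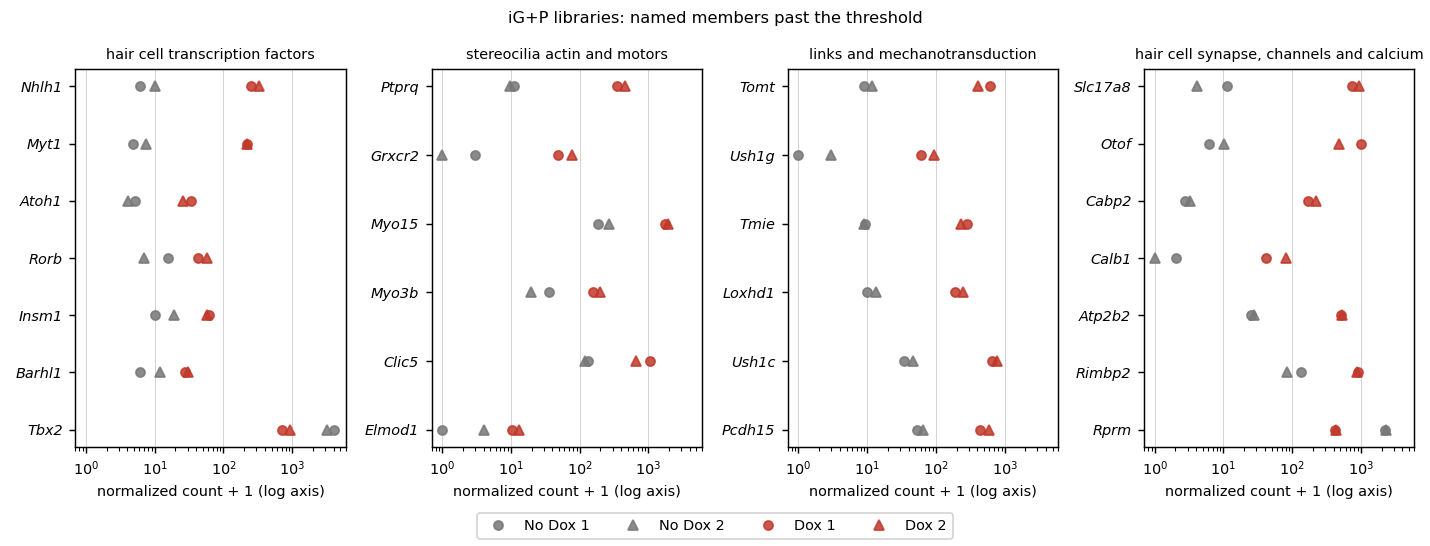
Normalized count + 1 (horizontal log axis) in the 2 No Dox (grey) and 2 Dox (red) iG+P libraries, circles for replicate 1 and triangles for replicate 2, for named members of the 4 hair cell lists that passed the test. Red points lie to the right of grey points in every row except Tbx2 and Rprm, which fell by 2.16 and 2.41 on the log2 scale.

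The links and mechanotransduction list covers proteins at the tips and bases of stereocilia. Of its 20 tested members 10 rose and 0 fell, with a median change of 1.51, and Clrn1, Clrn2 and Cib3 did not pass the filter. Tomt, a transmembrane methyltransferase that brings the transduction channel to the bundle, stood at 7.84 and 10.9 without Dox and at 617 and 411 with Dox (5.62, SE 0.52, adjusted p = 1.97e-07). Ush1g, a scaffold of the tip link complex, stood at 0 and 2.01 without Dox and at 59.9 and 94.2 with Dox (5.46, SE 0.69). Tmie, a channel subunit, stood at 8.18 and 8.02 and then at 279 and 233 (4.81, SE 0.44), Loxhd1 at 8.87 and 12.3 and then at 191 and 246 (4.25, SE 0.65), and the scaffold gene Ush1c at 33.7 and 46.1 and then at 650 and 775 (4.14, SE 0.30). Pcdh15, the cadherin at the lower end of the tip link, stood at 51.4 and 64.4 without Dox and at 432 and 592 with Dox (3.11, SE 0.36, adjusted p = 2.22e-06). The groups did not overlap for any of these 6 genes. Otoa, Cib2 and the channel gene Tmc1 also rose, with Tmc1 at 12.6 and 7.59 without Dox and at 20.1 and 56.5 with Dox.

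Cdh23, the cadherin at the upper end of the tip link and a qPCR marker of the study, did not pass the test. It stood at 53051 and 24919 without Dox and at 57248 and 67281 with Dox, a change of 0.77 (SE 0.58, adjusted p = 0.33). Over the 14 untreated libraries of all lines it ran from 10367 to 68416. In NCBIM37 its end lies 150 bases from the end of Psap, a lysosomal gene on the other strand that stood at 10039 to 11740 in the 4 iG+P libraries; whether reads of Psap enter the Cdh23 value was not tested. Vezt changed by 0.21 and the sphingosine phosphate receptor gene S1pr2 by -1.26, neither past the threshold.

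In the list of stereocilia actin and motor genes, 11 of 33 tested members rose and 0 fell, with a median of 0.52. Ptprq (chromosome 10, 106954416 to 107157083), a phosphatase of the shaft connectors between stereocilia, stood at 9.96 and 8.79 without Dox and at 345 and 457 with Dox (5.26, SE 0.45, adjusted p = 6.95e-08). Grxcr2, a glutaredoxin-like bundle protein, stood at 2.04 and 0 and then at 48.1 and 75.9 (5.14, SE 0.60). The unconventional myosin genes Myo15, whose product carries proteins to stereocilia tips, and Myo3b stood at 181 and 270, and at 34.8 and 18.4, without Dox. With Dox, Myo15 stood at 1764 and 1921 (3.05, SE 0.28) and Myo3b at 157 and 199 (2.75, SE 0.35). Clic5, at the stereocilia base, stood at 133 and 120 and then at 1051 and 665 (2.72, SE 0.42), and the groups were separate for all of these. Elmod1 stood at 0 and 3.01 without Dox and at 9.21 and 11.9 with Dox (2.52, SE 0.71), a call lost without Dox replicate 2 (adjusted p = 0.065) or No Dox replicate 1 (0.19). Espn, Espnl, Lcp1, Eps8l2 and Twf2 were the other members that rose. The most abundant members that did not pass the test were general actin regulators and a G protein: Rdx changed by -0.26, Gnai3 by -0.46 and Fscn1 by -0.85.

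Genes of the hair cell synapse, channels and calcium handling rose in 12 of 29 tested members, fell in 1, and had a median change of 1.11; Chrna1, Kcna10, Ocm and Tmprss3 did not pass the filter. Slc17a8 (chromosome 10, 89036765 to 89083998), which loads glutamate into synaptic vesicles of inner hair cells, stood at 10.1 and 3.08 without Dox and at 748 and 927 with Dox (6.95, SE 0.85, adjusted p = 4.49e-06). Otof (chromosome 5, 30669351 to 30764305), the calcium sensor of hair cell vesicle release, stood at 5.11 and 9.02 without Dox and at 997 and 485 with Dox (6.48, SE 0.48, adjusted p = 1.44e-08). The calcium-binding protein genes Cabp2 and Calb1 stood at 169 and 223, and at 40.2 and 81.3, with Dox, from levels at or under 2.22 without it. Atp2b2, the calcium pump of the hair bundle, went from 23.9 and 27.2 to 505 and 532 (4.29, SE 0.35, adjusted p = 4.77e-08), and Rimbp2, a protein of the active zone, from 133 and 82.4 to 917 and 870 (3.08, SE 0.43). Cabp1, Chrna10, Kcnj2, Smpx and Tmem255b also rose. Rprm fell from 2224 and 2281 to 412 and 436 (-2.41, SE 0.16, adjusted p = 4.64e-09). The ribbon and calcium channel genes Ctbp2 and Cacnb2, which are used well beyond hair cells, changed by -0.02 and -0.07, with overlapping groups.

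Transcription factors of hair cells rose in 8 of 27 tested members and fell in 1, with a median change of 0.73. Nhlh1, a bHLH factor of new neurons and hair cells, stood at 5.12 and 9.03 without Dox and at 249 and 330 with Dox (5.20, SE 0.51, adjusted p = 3.95e-07). The zinc finger gene Myt1 stood at 3.90 and 6.38 and then at 217 and 219 (5.19, SE 0.43). Rorb, Insm1 and Barhl1 rose to lower levels: Insm1, a factor of outer hair cells and neuroendocrine cells, to 60.0 and 57.3 (2.09, SE 0.49), and Barhl1, which hair cells need to survive, to 26.5 and 29.3 (1.75, SE 0.48). Atoh1 and Eya1 also rose. Tbx2 went from 4049 and 3245 to 701 and 931 (-2.16, SE 0.34, adjusted p = 6.46e-05). Without No Dox replicate 1 the number that rose was 5 rather than 8, and Barhl1 changed by 1.26 (adjusted p = 0.12). Zbtb20, Rfx3 and Rfx1, the most abundant members that did not pass, changed by 0.43, 0.36 and 0.12.

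The remaining qPCR markers of the study divided in the same fit. Espn, an actin bundler, stood at 446 and 551 without Dox and at 2332 and 1421 with Dox, and rose by 1.87 (SE 0.35, adjusted p = 4.19e-04). Myo6 changed by 1.40 (SE 0.20, adjusted p = 2.05e-05), under the fold threshold, with 1833 and 2299 against 5066 and 5819, and it passed without Dox replicate 1 or without No Dox replicate 2 (1.57). Myo7a changed by 0.38, with 1386 and 1759 against 2017 and 2048. Lhx3, a LIM factor of hair cells and motor neurons, stood at 1.47 and 0 without Dox and at 5.63 and 4.64 with Dox, a change of 1.96 (SE 0.77) with an adjusted p of 0.059. Tubb3 stood at 104 and 110 and then at 163 and 132 (0.45, SE 0.36), and Barhl2 at 3.07 and 0 and then at 12.8 and 3.25 (1.92, SE 1.08, adjusted p = 0.19). Neither passed the test, whereas Dcx, a microtubule protein of migrating neurons, rose from 17.4 and 13.0 to 142 and 279 (3.64, SE 0.44, adjusted p = 4.35e-06).

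Genes of neurons were described in 3 lists. Of 46 tested general neuronal genes 9 rose (19.6%) and 1 fell (2.17%), against 5.16% and 5.36% of all genes, with a median change of 0.43. Cntn2, an axonal adhesion molecule, went from 33.5 and 37.3 to 500 and 542 (3.84, SE 0.42), and the RNA-binding protein gene Elavl4 from 80.8 and 106 to 784 and 1249 (3.41, SE 0.32, adjusted p = 2.07e-07). Chga, of secretory granules, and Syt1, the calcium sensor of synaptic vesicles, rose by 3.05 and 2.35, and Miat, Celf4, Nova1 and Gng3 also rose. Gap43, of growth cones, fell from 311 and 436 to 31.4 and 48.8 (-3.20, SE 0.37, adjusted p = 2.23e-06). Leaving out any of 3 libraries changed the number that fell: it was 3 without Dox replicate 1, 2 without Dox replicate 2 and 3 without No Dox replicate 2. Map1b and Ncam1, abundant members that did not pass, changed by -1.38 and 0.27, and Map1b passed without Dox replicate 1 (-1.61).

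Proneural and neurogenic factors rose in 7 of 23 tested members (30.4%) and fell in 1 (4.35%), against 5.16% and 5.36% of all genes. A further 7 did not pass the filter. Beside Nhlh1, Myt1 and Insm1, the olfactory and early B cell factor gene Ebf1 went from 81.7 and 60.2 to 384 and 252 (2.13, SE 0.41, adjusted p = 4.80e-04). Neurog1, a proneural factor of cranial sensory neurons, was listed at 0 in both No Dox libraries and stood at 5.93 and 4.32 with Dox, a call lost with a pseudocount of 5 (1.01), and Bhlhe22 also rose. Ascl2 rose by 1.98, a call lost without Dox replicate 1 (1.37, adjusted p = 0.23), No Dox replicate 1 (0.08) or No Dox replicate 2 (0.11). Atoh8 fell from 659 and 648 to 170 and 185 (-1.88, SE 0.23), and 2 members fell without Dox replicate 1 or without No Dox replicate 1. Hes6, Ebf3 and Prdm8 changed by 1.38, 0.96 and -1.41, none past the threshold, but Hes6 passed without Dox replicate 2 (1.61) and Prdm8 without No Dox replicate 1 (-1.64).

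Among genes of sensory neuron identity 10 of 32 tested members rose (31.2%) and 2 fell (6.25%), with a median of 0.27. Over all genes 5.16% rose and 5.36% fell, so the share that fell was near that of all genes. Against all 14 untreated libraries 4 fell. Pou4f1, the relative of Pou4f3 that specifies somatosensory neurons, went from 27.6 and 35.1 to 535 and 266 (3.56, SE 0.50, adjusted p = 2.33e-05), and the neurotrophin receptor gene Ntrk3 from 42.2 and 21.7 to 353 and 332 (3.46, SE 0.58). Prrxl1, a homeobox gene of pain-sensing neurons, stood at 26.7 and 37.0 with Dox (3.81, SE 0.70), and the neuropeptide gene Adcyap1 at 28.5 and 37.9 (4.29, SE 0.64). Tlx3 was listed at 0 in both No Dox libraries and stood at 15.8 and 14.1 with Dox. Phox2a, a factor of autonomic neurons, fell from 556 and 572 to 44.2 and 39.0 (-3.73, SE 0.75, adjusted p = 7.04e-04). Trpm8 fell by 2.61, a call lost without Dox replicate 1 (adjusted p = 0.18) or No Dox replicate 1 (0.17). Runx1, Ret and Isl1 changed by 0.71, -0.14 and -0.20.

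**Figure D2:**
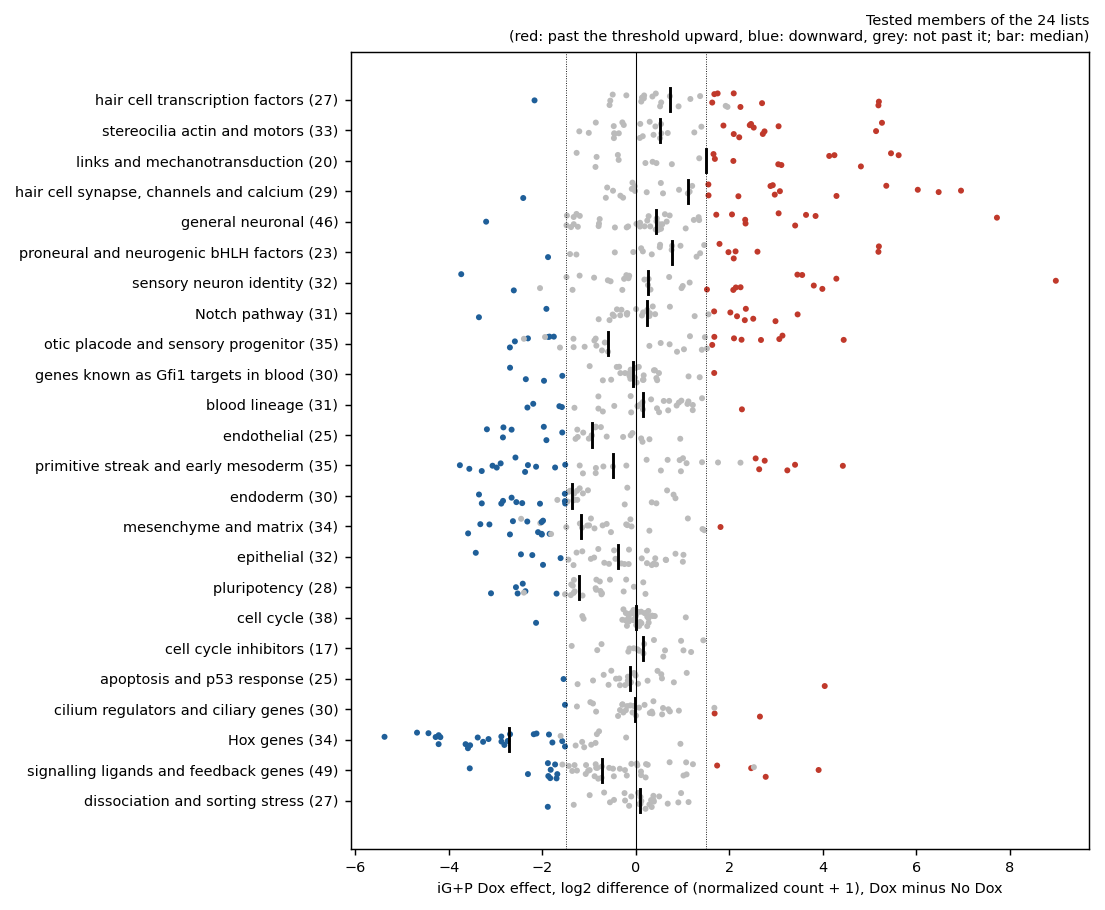
Log2 difference of (normalized count + 1), Dox minus No Dox in iG+P (horizontal axis), for each tested member of the 24 gene lists, with the number tested in brackets; red and blue points passed the test upward and downward, grey points did not, and bars are medians. The medians run from -2.71 for Hox genes to 1.51 for links and mechanotransduction.

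Through the Notch pathway differentiating cells hold back their neighbours. Of its 31 tested members 8 rose (25.8%) and 2 fell (6.45%), with a median of 0.25. Over all genes 5.16% rose and 5.36% fell, so the share that fell was near that of all genes. The ligand genes Dll3 and Dll1 stood at 168 and 186, and at 54.2 and 103, without Dox. With Dox, Dll3 stood at 2825 and 1348 (3.46, SE 0.68, adjusted p = 5.95e-04) and Dll1 at 476 and 242 (2.16, SE 0.57). The fringe glycosyltransferase genes Mfng and Lfng, which tune receptors, rose by 2.51 and 2.33, and the ubiquitin ligase gene Dtx1 by 2.35, but against all 14 untreated libraries the change of Mfng was just under the threshold. Hes7 and Heyl also rose. The effector gene Hes5 stood at 0 and 2.02 without Dox and at 28.7 and 5.39 with Dox (2.99), so that the Dox libraries differed between themselves. Dlk1, a non-canonical ligand, fell from 10373 and 13401 to 997 and 1333 (-3.35, SE 0.35), and Hey2 from 1826 and 1399 to 464 and 388 (-1.91, SE 0.19), which did not pass against all 14 untreated libraries (-1.16). Without Dox replicate 1 the number that rose was 5. The calls of Dll1 and Hes5 were lost without that library (adjusted p = 0.084 and 0.20) and without No Dox replicate 1 (0.087 and 0.155). Mib1, Notch2 and Notch3 changed by 0.13, -0.33 and -0.56.

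Otic placode and sensory progenitor genes moved both ways, with 8 of 35 tested members up (22.9%) and 6 down (17.1%). Over all genes 5.16% rose and 5.36% fell, and the median of the list was -0.59. Lmx1b, a LIM factor, went from 18.4 and 13.0 to 407 and 316 (4.45, SE 0.53, adjusted p = 3.54e-06), Eya4, a deafness gene, from 87.8 and 81.1 to 589 and 869 (3.07, SE 0.43), and Irx5 from 122 and 108 to 694 and 444 (2.26, SE 0.29). Bmp4, a ligand of developing sensory patches and of mesoderm, fell from 10644 and 9358 to 2061 and 1976 (-2.31, SE 0.29), Fgfr3, a receptor of supporting cells, by 1.87, and Zic1 by 2.69. Gbx2, Zic2 and Sox10 rose by 3.14, 2.68 and 2.10, and Tfap2a, Oc90 and Dlx6 fell by 1.84, 1.75 and 2.58. Each of these 6 calls was lost without at least 1 library. Without Dox replicate 1 those of Gbx2 (adjusted p = 0.17), Zic2 (0.091), Sox10 (0.14) and Oc90 (0.11) were lost, and without Dox replicate 2 those of Tfap2a (0.12) and Dlx6 (0.29). Without No Dox replicate 1 those of Gbx2 (0.097), Zic2 (0.064) and Dlx6 (0.22) were lost, and without No Dox replicate 2 those of Zic2 (0.055), Sox10 (0.16), Oc90 (0.20), Tfap2a (0.053) and Dlx6 (0.085). The number that rose was 5 without Dox replicate 1 and 4 without No Dox replicate 1, and the number that fell was 3 without No Dox replicate 2.

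Hox genes, which mark position along the trunk, fell in 24 of 34 tested members (70.6%, against 5.36% of all genes) and 0 rose. A further 5 did not pass the filter on low values. Against all 14 untreated libraries 1 rose. The median change was -2.71. All 8 tested genes of cluster C fell, with a median of -4.21 and a range from -4.68 to -2.12, as did 6 of 9 in cluster A, 5 of 9 in cluster B and 5 of 8 in cluster D. By paralog number, 23 of 26 genes numbered 4 to 13 fell, with a median of -3.01, and 1 of 8 numbered 1 to 3, with a median of -1.03. Hoxc9 and Hoxc4 went from 188 and 126, and from 267 and 270, to 5.89 and 6.50, and to 13.1 and 12.6 (-4.43, SE 0.45, and -4.28, SE 0.28). Hoxc6 (-4.21) and Hoxc10 (-4.22) fell to levels under 14 in both Dox libraries. The abundant Hoxb2, Hoxb3 and Hoxd3 changed by -0.95, -0.83 and -1.10, none past the threshold.

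**Figure D3:**
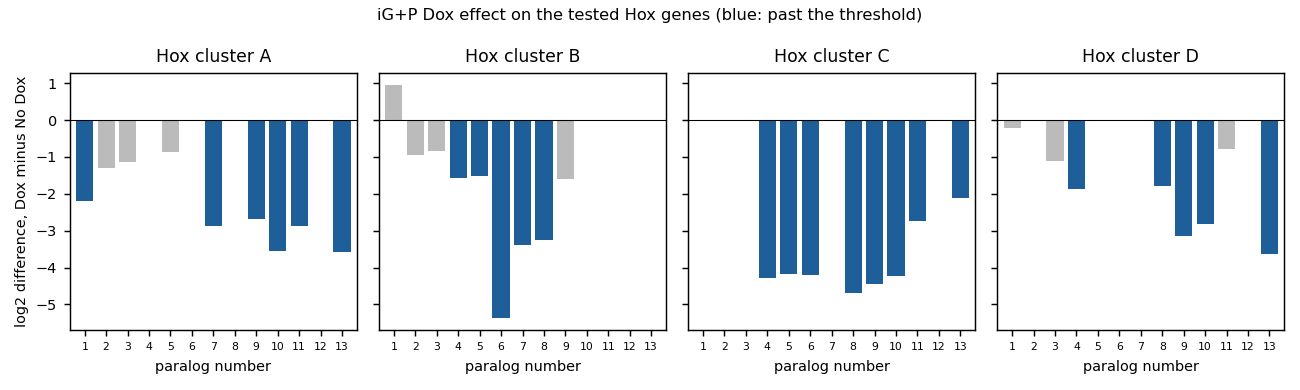
Log2 difference, Dox minus No Dox in iG+P (vertical axis), for the 34 tested Hox genes of clusters A to D by paralog number (horizontal axis); blue bars passed the test and grey bars did not. All 8 bars of cluster C are blue, and the 8 bars for paralogs 1 to 3 hold 1 blue bar.

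Primitive streak and early mesoderm genes fell in 12 of 35 tested members (34.3%) and rose in 6 (17.1%), against 5.36% and 5.16% of all genes. Their median change was -0.49. Hand1, a factor of heart and lateral plate, went from 47582 and 35487 to 3320 and 3659 (-3.56, SE 0.32, adjusted p = 1.45e-07), Tbx20 from 7565 and 7339 to 1036 and 767 (-3.06, SE 0.38), and Hand2, a relative of Hand1, changed by -2.89. Cdx2, a posterior factor, went from 2629 and 1469 to 194 and 107 (-3.76, SE 0.43), and Snai2, of migrating mesenchyme, from 5466 and 4491 to 446 and 571 (-3.29, SE 0.44). Nkx2-5 fell by 2.97, a call lost without Dox replicate 1 (adjusted p = 0.12) or No Dox replicate 2 (0.069). The forkhead gene Foxc1, of paraxial mesoderm, went from 312 and 348 to 4421 and 2777 (3.41, SE 0.38, adjusted p = 1.77e-06) and Foxc2 from 43.1 and 66.3 to 513 and 263 (2.76, SE 0.57). Msgn1, Osr1, Cdx1 and Mesp2 rose by 4.43, 3.24, 2.64 and 2.56. The number that rose was 3 rather than 6 without No Dox replicate 2, where Msgn1 (adjusted p = 0.08), Osr1 (0.069) and Mesp2 (0.11) did not pass. Without Dox replicate 1 Msgn1 (0.054) and Mesp2 (0.27) did not pass, nor did Mesp2 without No Dox replicate 1 (0.14). Gata4, Gata6 and Snai1 changed by -1.20, -1.13 and 0.23.

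The EB holds other cell types, and fewer cells of a type cannot be told apart from less RNA per cell in these bulk libraries. Mesenchyme and matrix genes fell in 12 of 34 tested members (35.3%) and rose in 1 (2.94%), against 5.36% and 5.16% of all genes. Their median change was -1.17, and in the other lines it ran from -1.66 in iGPA to -0.365 in iPou4f3. Their summed level was 231754 and 282629 without Dox and 138217 and 119020 with Dox. Acta2, smooth muscle actin, went from 11096 and 21977 to 1139 and 1484 (-3.59, SE 0.42), Col1a1, type I collagen, from 41392 and 41086 to 3839 and 5782 (-3.13, SE 0.38), and the intermediate filament gene Vim from 32925 and 31069 to 5608 and 4377 (-2.69, SE 0.22, adjusted p = 3.51e-08). Col12a1, a collagen of dense connective tissue, went the other way, from 284 and 360 to 1086 and 1169 (1.81, SE 0.36). Fn1 changed by -0.11, with overlapping groups. Against all 14 untreated libraries 19 members fell and 0 rose, and 2 rose without Dox replicate 2 or without No Dox replicate 1.

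Endoderm genes fell in 11 of 30 tested members (36.7%, against 5.36% of all genes) and 0 rose, with a median of -1.37. In the other lines the median ran from -1.41 in iGfi1 to -0.8 in iPou4f3. Hnf4a, a factor of visceral endoderm and liver, went from 162 and 222 to 19.8 and 15.7 (-3.35, SE 0.53), and the secreted carrier gene Ttr from 201 and 418 to 21.6 and 37.9 (-3.29, SE 0.67). The endocytic adaptor gene Dab2 went from 5354 and 5322 to 879 and 939 (-2.55, SE 0.37). The number that fell was 7 without Dox replicate 2 and 7 without No Dox replicate 2. Col4a1 and Col4a2, basement membrane collagens, changed by -0.18 and -0.24.

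Endothelial genes fell in 7 of 25 tested members (28.0%, against 5.36% of all genes) and 0 rose, with a median of -0.94. In the other lines the median ran from -0.414 in iPou4f3 to 0.654 in iG+A. Against all 14 untreated libraries 14 fell in iG+P. Pecam1, an adhesion molecule, went from 3319 and 3116 to 332 and 375 (-3.18, SE 0.25, adjusted p = 3.46e-08), Ecscr from 417 and 493 to 58.9 and 66.2 (-2.84, SE 0.28), and Icam2 from 94.2 and 120 to 16.7 and 11.9 (-2.83, SE 0.35). The factor genes Sox17 and Erg fell by 2.66 and 1.97. Kdr, the VEGF receptor of vessels and their progenitors, changed by -0.94, from 8055 and 7678 to 4053 and 4124. Tek, an angiopoietin receptor gene, fell by 1.91, and without No Dox replicate 2 its change was -1.38. The summed level was 28675 and 32017 without Dox and 18170 and 16897 with Dox, and no member was at 0 in both libraries of a group. The part of these lists in the results above was not tested.

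Epithelial genes fell in 5 of 32 tested members (15.6%, against 5.36% of all genes) and 0 rose. Their median change was -0.37, and in the other lines it ran from -1.21 in iP+A to -0.28 in iGPA. The keratin genes Krt19, Krt8 and Krt18 fell by 3.42, 2.46 and 2.21, with Krt8, of simple epithelia, at 11094 and 10613 without Dox and at 1881 and 2080 with Dox. Cdh3 fell by 1.98 and Esrp1 by 1.61, a call lost without Dox replicate 2 (adjusted p = 0.243), No Dox replicate 1 (0.066) or No Dox replicate 2 (0.127). Epcam changed by 0.85 (SE 0.55), from 1004 and 1166 to 2483 and 1529. Pluripotency genes fell in 6 of 28 tested members (21.4%, against 5.36% of all genes) and 0 rose, with a median of -1.22. In the other lines the median ran from -2.32 in iP+A to -0.76 in iGPA. Dppa3, a germ cell and naive state gene, went from 73.8 and 136 to 10.8 and 10.8 (-3.10, SE 0.71, adjusted p = 0.00218). The number that fell was 1 without Dox replicate 2, 3 without No Dox replicate 1 and 3 without No Dox replicate 2, and the calls of Utf1, Dppa2, Tcl1, Dppa5a and Dnmt3l were each lost without at least 1 of these libraries. Lin28a, the most abundant member, changed by -1.39 (SE 0.30), from 19924 and 16299 to 7728 and 6124, and passed without Dox replicate 1 (-1.56) or No Dox replicate 2 (-1.53).

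Early EBs express blood genes in primitive erythroid cells. Of 31 tested members 1 rose (3.23%) and 4 fell (12.9%), against 5.16% and 5.36% of all genes, with a median of 0.15. Lmo2, an adaptor of blood and vessel progenitors, went from 1386 and 1704 to 7399 and 7428 (2.27, SE 0.29, adjusted p = 6.36e-06). Its partner gene Tal1 changed by 1.22, under the fold threshold. The embryonic globins Hbb-bh1 and Hbb-y fell by 1.58 and 2.32, but their calls were lost without Dox replicate 1 (adjusted p = 0.35 and 0.17) or No Dox replicate 2 (0.20 and 0.24), as were those of Tyrobp (0.0901 and 0.114), which fell by 2.19. Within each replicate number both globins were lower with Dox, Hbb-y going from 585 to 144 and from 1611 to 261, and both passed with the replicate number as a block. Mpo fell by 1.63, a call lost without Dox replicate 2 (0.0519) or No Dox replicate 2 (0.0853). Thus 1 member fell without Dox replicate 1 and 0 without No Dox replicate 2, and 3 and 2 rose without these libraries. Summed levels of the list were 88101 and 164165 without Dox and 67510 and 128932 with Dox. Of 30 tested genes known as targets of Gfi1 in blood cells, 1 rose (3.33%) and 4 fell (13.3%), with a median of -0.064. Csf1, a macrophage growth factor gene, went from 711 and 1070 to 234 and 212 (-1.96, SE 0.30), and Hoxa9 from 92.2 and 60.2 to 11.8 and 9.73 (-2.69, SE 0.63), while Meis1, Irf8 and Id4 changed by -1.57, -2.35 and 1.68. The calls of Meis1 (change -1.38) and Irf8 (adjusted p = 0.0985) were lost without Dox replicate 2, and those of Irf8 (0.12) without No Dox replicate 2 and of Id4 (change just under the threshold) without No Dox replicate 1. Without Dox replicate 1 the number that rose was 2.

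Of 49 tested signalling ligands and feedback genes 9 fell (18.4%) and 4 rose (8.16%), against 5.36% and 5.16% of all genes. Wnt11, a non-canonical Wnt ligand of mesoderm, went from 598 and 696 to 43.1 and 68.0 (-3.55, SE 0.41), and the antagonist genes Dkk1, Dkk3 and Nog fell by 1.88, 1.83 and 1.82. Inhbb, an activin subunit gene, rose from 3.07 and 4.01 to 137 and 32.5 (3.91, SE 0.80), and the Wnt antagonist gene Notum from 234 and 138 to 1281 and 778 (2.47, SE 0.41). Fgf17 rose by 2.78 and did not pass without Dox replicate 1 (adjusted p = 0.057), and Chrd, a BMP antagonist gene, rose by 1.74. Against all 14 untreated libraries 7 members rose. Fgfr1, Ptch1 and Smad6 changed by -1.36, -0.73 and -0.57, and Fgfr1 passed without Dox replicate 1 (-1.55).

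Of 38 tested cell cycle genes 0 rose and 1 fell (2.63%, against 5.36% of all genes), with a median change of 0.012 against 0.003 over all genes, and the proliferation genes Mki67 and Top2a changed by 0.27 and 0.24. Ccnd1, cyclin D1, went from 4746 and 3053 to 1036 and 726 (-2.13, SE 0.45, adjusted p = 0.00106), and a further member fell without Dox replicate 1. Against all 14 untreated libraries the change of Ccnd1 was -1.31 and 0 members fell. Of 17 cell cycle inhibitor genes 0 passed the test in either direction, with Cdkn1c at -0.82; 1 rose without Dox replicate 1 or without No Dox replicate 2, and 1 fell without Dox replicate 2 or without No Dox replicate 1. In the apoptosis list 1 of 25 rose and 1 fell (4.0% each, against 5.16% and 5.36% of all genes). Hrk, a BH3-only gene of neurons, went from 42.9 and 46.1 to 831 and 672 (4.04, SE 0.29, adjusted p = 9.39e-09). Bmf, another BH3-only gene, fell from 4954 and 4355 to 1388 and 1828 (-1.54, SE 0.22), and its change was -1.34 without Dox replicate 1 and -1.45 without No Dox replicate 1. Without No Dox replicate 2 the number that rose was 2.

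Of 30 tested ciliary genes 2 rose (6.67%) and 1 fell (3.33%), against 5.16% and 5.36% of all genes. Dnaaf1, a dynein assembly factor gene, went from 975 and 686 to 4028 and 6601 (2.65, SE 0.43, adjusted p = 9.68e-05). The calls of Dnah5 (1.69) and Ttll6 (-1.51) were lost when a library was left out: Dnah5 without Dox replicate 2 (adjusted p = 0.16) or No Dox replicate 1 (0.13), and Ttll6 without Dox replicate 1 (0.068), Dox replicate 2 (0.083) or No Dox replicate 2 (0.17). Without No Dox replicate 1 the number that fell was 2. Of 27 genes of dissociation and sorting stress 0 rose and 1 (3.7%), Fosl2, fell (-1.88, SE 0.35), 3 fell without Dox replicate 2 and 1 rose without Dox replicate 1. Fosb changed by 0.10, with 7834 and 22168 against 7337 and 27189. Their part in the differences by replicate was not tested. Against all 14 untreated libraries the calls of Dlx6 (-1.16), Tfap2a (-1.12), Id4 (1.15), Meis1 (-1.24), Col12a1 (1.30), Esrp1 (-1.26), Bmf (-1.12) and 9130019O22Rik (adjusted p = 0.175), described above, were also lost, while Lhx3 passed (1.61). With that control 2 ciliary, 3 stress and 1 cell cycle inhibitor gene fell.

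The Dox effect in iG+P was then set against the sum of the effects in the single-factor lines iGfi1 and iPou4f3, on the log2 scale. Each line's effect also holds Dox exposure and sorting, so a change shared by the lines enters the sum from both single lines. Such a change puts a gene off the sum by itself, and this comparison cannot tell it from joint action of the factors. A total of 20 genes were above the sum, 0.119% of those tested, and 15 below it, 0.0891%. An unadjusted p under 0.05 was found in 1399. With the replicate number as a block 25 genes were above the sum and 27 below. Lrrc4 was listed at 0 in all 8 libraries of iGfi1 and iPou4f3 and in untreated iG+P, against 396 and 426 in iG+P with Dox (above the sum with an adjusted p of 1.4e-06), and the size of this difference depends on the pseudocount. Pcdh17, a non-clustered protocadherin of synapses, rose from 38.4 and 71.6 to 1273 and 1608 in iG+P. Its effects were 0.04 in iGfi1 and -0.37 in iPou4f3, so that it lay 5.08 above the sum (adjusted p = 0.0223). Col12a1 lay 3.82 above the sum, with effects of -1.39 and -0.61 in the single lines and 1.81 in iG+P. Ppp1r1b and Mogat1 lay 5.41 and 9.36 above it, and Mogat1 stood at 563 and 543 in untreated iPou4f3 and at 21.5 and 23.9 there with Dox. Twf2, an actin-capping gene of stereocilia, lay 1.54 above the sum, chosen after its values were seen like the 5 Hox genes below.

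The 5 Hox genes Hoxb8, Hoxc4, Hoxc6, Hoxd8 and Hoxd9 were among the 15 below the sum. The median of the 34 tested Hox genes was -1.93 beyond the sum, against -0.018 over all genes. In the other lists this median ran from -0.432 for proneural factors to 0.888 for epithelial genes. It was 0.839 for pluripotency and 0.658 for endoderm genes, lists with negative medians in both single lines. Cxcl14 lay 4.40 below the sum, with effects of -1.63 and 0.94 in the single lines and -5.08 in iG+P. Cped1 lay 3.11 below it and the netrin receptor gene Unc5d 3.69, with Unc5d at 544 and 473 in iPou4f3 with Dox and at 94.1 and 74.8 in iG+P with Dox. Mstn, myostatin, was listed at 0 in all 4 iG+P libraries and stood at 156 and 121 in iPou4f3 with Dox. Hprt lay 3.48 below the sum (adjusted p = 1.97e-05). It rose in each line, by 4.68 in iGfi1, 3.57 in iPou4f3 and 4.77 in iG+P. A rise that all of these lines share lies below the sum by itself, so this call cannot show the factors acting together. Pou4f3 itself reached 4694 and 5381 in iPou4f3 with Dox, below its 17590 and 19883 in iG+P, and the part of this difference in the comparison was not tested.

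Many of these calls were lost when 1 library was left out. The number above the sum was 12 without iG+P Dox replicate 1, 5 without iG+P No Dox replicate 1 and 34 without iG+P No Dox replicate 2. It was 9, 5 and 8 without iGfi1 Dox replicate 2, iGfi1 No Dox replicate 1 and iGfi1 No Dox replicate 2, and 10, 10, 5 and 12 without iPou4f3 Dox replicate 1, Dox replicate 2, No Dox replicate 1 and No Dox replicate 2. The number below it was 4 without iG+P No Dox replicate 1, 3, 9 and 3 without the same 3 iGfi1 libraries, and 4, 3 and 7 without iPou4f3 Dox replicate 1, No Dox replicate 1 and No Dox replicate 2. Lrrc4, Hprt and Cped1 kept their calls without each library in turn. Col12a1, Cxcl14, Pcdh17, Ppp1r1b, Mogat1, Mstn and Unc5d each lost theirs in at least 4 of the 12. Where 3 genes remained below the sum, Hprt and Cped1 were among them, so most of the 5 Hox genes had lost their calls.

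**Figure D4:**
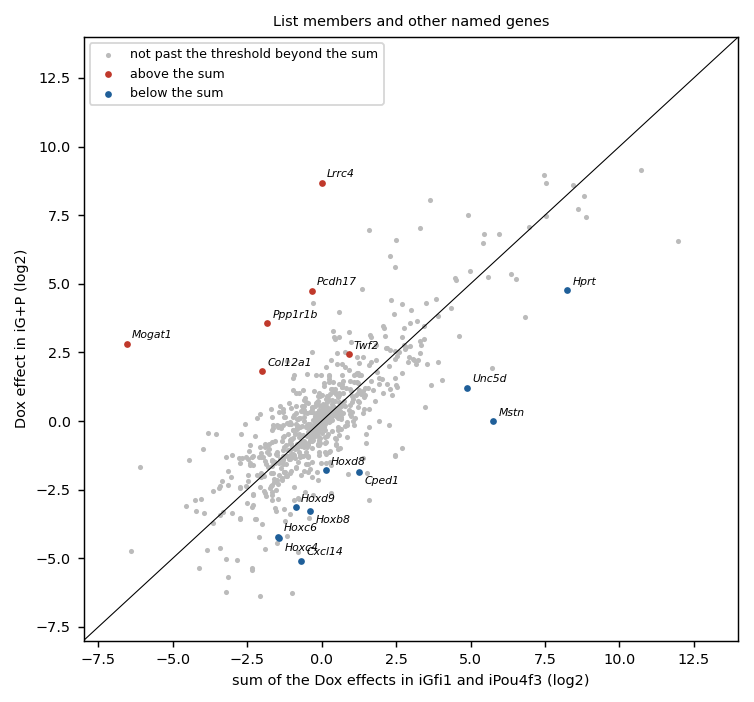
Dox effect in iG+P (vertical axis, log2) against the sum of the Dox effects in iGfi1 and iPou4f3 (horizontal axis, log2) for list members and other named genes; the line marks equality, and red and blue points passed the test above and below the sum. Pcdh17 lies 5.08 above the line, and Hprt, at 4.77 on the vertical axis, 3.48 below it.

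Each line against its own untreated libraries gave the following overlaps, which are descriptions. Of the 868 genes that rose in iG+P, 237 (27.3%) also rose in iGfi1, where they were 65.5% of 362, and 159 (18.3%) in iPou4f3, where they were 64.1% of 248. Of the 902 that fell, 334 (37.0%) fell in iGfi1, 74.4% of 449, and 16 (1.77%) in iPou4f3, 15.7% of 102. The hair cell lists held 7 genes that rose in iGfi1 and 20 in iPou4f3 among their 109 tested members, beside the 41 in iG+P. Over all genes tested 2.15% rose in iGfi1 and 1.47% in iPou4f3. In the lines with an Atoh1 transgene 43 members rose in iGPA, 34 in iP+A, 28 in iG+A and 12 in iAtoh1. Over all genes 8.65%, 4.7%, 7.35% and 2.89% rose in these lines, and Atoh1 is itself a member of the lists. Ptprq changed by -0.05 in iGfi1 and 5.63 in iPou4f3, Otof by 0.53 and 4.90, and Sncg by 0.59 and 6.86. Slc17a8 changed by 1.59 in iGfi1 and 0.01 in iPou4f3, against 6.95 in iG+P, but its value beyond the sum (5.35, adjusted p = 0.17) did not pass. Of the 34 Hox genes 6 fell in iGfi1 and 0 in iPou4f3, where 2.67% and 0.606% of all genes fell. The number that fell was 18 in iGPA, 11 in iG+A, 2 in iP+A and 0 in iAtoh1, where 5.31%, 4.95%, 2.58% and 2.52% of all genes fell.

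Against iGPA, which adds Atoh1, 280 genes had a higher effect in iG+P (1.66% of those tested) and 714 a lower effect (4.24%). Atoh1 itself reached 16728 and 19107 in iGPA with Dox, and it stood at 87.3 and 92.3 in untreated iGPA. The hair cell lists, which include the iGPA transgene Atoh1, held 16 genes with a lower effect in iG+P and 5 with a higher effect. The lower ones were mainly transcription factors, 10 of 27, among them Lhx3, which stood at 337 and 497 in iGPA with Dox and was lower in iG+P by 5.79 (adjusted p = 0.00149). Of the 33 stereocilia genes 0 were lower and 2 higher: Ptprq by 5.01, with 12.0 and 25.6 in iGPA with Dox, and Myo15 by 1.68. Rorb, Rfx2 and Tomt were the other 3 with a higher effect, by 1.85, 1.56 and 3.34, and these 5 were chosen after their values were seen. In the neuronal lists 18 of 46 general neuronal genes, 13 of 23 proneural factors and 6 of 32 sensory neuron genes had a lower effect in iG+P, against 1, 0 and 1 with a higher effect. Of the Notch genes 10 of 31 were lower and 0 higher, of endothelial genes 14 of 25 and 0, and of blood genes 1 of 31 lower and 12 higher, and of Hox genes 5 of 34 lower and 0 higher.

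Among the largest differences from iGPA, Dbx1 and Helt, homeobox and bHLH genes of the neural tube, stood at 335 and 455, and at 289 and 215, in iGPA with Dox, and at 0 and 0, and 4.84 and 0, in iG+P with Dox. Both were listed at 0 in untreated iGPA. Mybpc1, a muscle myosin-binding protein gene, stood at 1829 and 3307 in iGPA with Dox and at 17.6 and 22.8 in iG+P with Dox (difference -7.46, adjusted p = 1.33e-05). Wnt10a (-7.22) and Unc80 (-7.14), a sodium leak channel subunit gene, followed. In the other direction Ces1d stood at 9.22 and 10.1 in iGPA with Dox and at 557 and 787 in iG+P with Dox, a difference of 5.60 (adjusted p = 0.00253). Tenm2, a teneurin of synapses, differed by 5.10, with 68.3 and 116 in iGPA with Dox and 1146 and 831 in iG+P with Dox. Ints2, Dio3os and Evi2b had the largest upward differences, 14.02, 6.42 and 6.34, but each was listed at or near 0 in iGPA with Dox, so that their sizes depend on the pseudocount. Ints2, a subunit gene of the Integrator complex, stood at 0 and 9.08 in untreated iG+P, at 174 and 515 in iG+P with Dox, at 63.9 and 472 in untreated iGPA and at 0 in both iGPA libraries with Dox. Its call was lost without iG+P Dox replicate 2 (adjusted p = 0.061), iG+P No Dox replicate 1 (0.07) or iGPA No Dox replicate 2 (0.075). The number with a higher effect was 173, 156 and 161 without iG+P Dox replicate 2, iG+P No Dox replicate 1 and iGPA No Dox replicate 2.

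Against iG+A, in which Atoh1 takes the place of Pou4f3, 552 genes had a higher effect in iG+P (3.28%) and 816 a lower effect (4.85%). The hair cell lists went both ways by role, and the transcription factor list includes Atoh1, a transgene in iG+A. In the 3 lists of bundle, link and synapse genes 21 of 82 tested members had a higher effect in iG+P and 1 a lower effect, with 9 of 33 higher in the stereocilia list, while in the transcription factor list 3 of 27 were higher and 9 lower. Otof stood at 17.0 and 9.76 in iG+A with Dox and at 997 and 485 in iG+P with Dox, a difference of 5.86 (adjusted p = 1.35e-05). The largest higher effects were those of Kcnv1 (8.68), Sncg (8.07), Gh (7.63), Gm5797 (7.47) and Cdcp2 (7.45). Gm5797 was listed at 0 in all 4 iG+P libraries and in iG+A stood at 281 and 111 without Dox and at 0 with it. Its call was lost without iG+A No Dox replicate 1 (adjusted p = 0.087), iG+P Dox replicate 2 (0.06), iG+P No Dox replicate 1 (0.06) or iG+P No Dox replicate 2 (0.052). Dbx1 (-8.98), 9130019O22Rik (-8.97), Helt (-8.39), Fbxo40 (-7.88) and the activin receptor gene Acvr1c (-7.54) had the largest lower effects. The call of 9130019O22Rik was lost without iG+A Dox replicate 2 (adjusted p = 0.0862), iG+A No Dox replicate 1 (0.0621), iG+P Dox replicate 2 (0.0597) or iG+P No Dox replicate 1 (0.0711). For Gh, Gm5797, Dbx1, 9130019O22Rik and Helt, listed at 0 in a group, the size depends on the pseudocount. Acvr1c stood at 1369 and 527 in iG+A with Dox and at 25.2 and 7.08 in iG+P with Dox. Of the Notch genes 15 of 31 had a lower effect in iG+P and 0 a higher effect, and of the Hox genes 17 of 34 and 0.

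**Figure D5:**
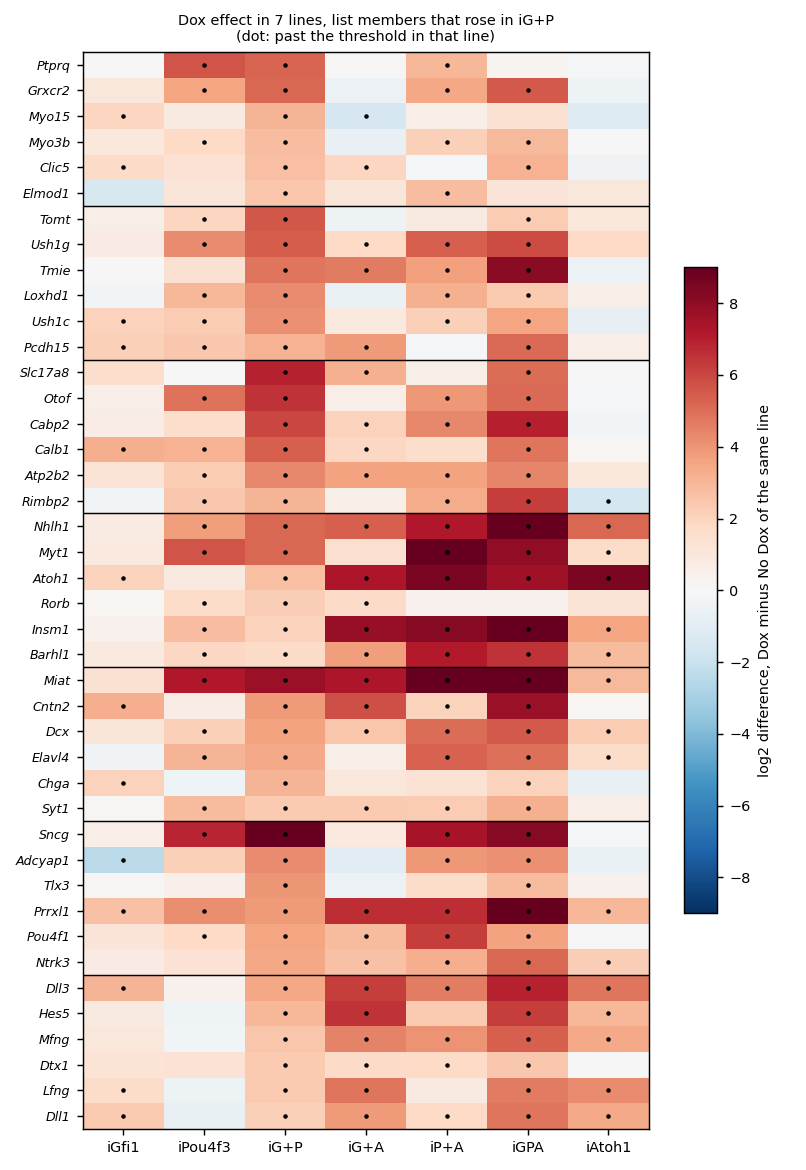
Dox effect (colour, log2 difference of normalized count + 1, Dox minus No Dox of the same line) in 7 lines (columns) for list members that rose in iG+P (rows); dots mark effects that passed the test in that line and black lines divide the lists of stereocilia, link, synapse, transcription factor, general neuronal, sensory neuron and Notch genes. Ptprq is marked in iPou4f3, iG+P and iP+A and not in iGPA, and Slc17a8 in iG+P, iG+A and iGPA.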

How the data were processed

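RNA was measured in 28 libraries from 7 lines, 4 of them iG+P. Per the labels and the study's methods, the authors used cutadapt for trimming, Kallisto for pseudo-alignment (UCSC knownGene, mm9), tximport for gene totals and DESeq2 for normalization; the deposited values are log2(normalized count + 1), by Entrez ID. Tool versions are not given in the sources used here. Between 72.4% and 79.4% of low values lay within 0.05 of whole reads, so whole reads were not recovered and count models were not run. Symbols came from RefSeq, and coordinates from GENCODE M1 on NCBIM37.

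A gene was tested where 2 or more libraries reached 10 normalized counts (16837 of 19421), using limma 3.58.1 (R 4.3.3, variance trend, 14 groups, 14 residual degrees of freedom), with p-values adjusted by Benjamini-Hochberg within each comparison. Raw counts were not used here, so depth is an estimate and 0 is a listed value. Equal replicate numbers were treated as pairs in an alternative fit, since deviations of same-numbered libraries correlated in every line (0.103 to 0.246). Alternatives changed the pseudocount, filter, scaling, variance trend, controls and libraries. The genes named were the transgenes and Atoh1, the qPCR markers, the 15 largest rises and falls with at least 50 normalized counts and separate groups, up to 6 members per list and direction and 3 not past the threshold, and 5 genes per direction in the other comparisons. Members and lists were chosen with earlier results of these data known. Clustered protocadherins share exons and are named as uncertain. Some list members that were counted are not reported by name here.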

Additional observations from a re-analysis of the deposited data

Results flagged for a closer look

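The Dox effect in iG+P differed from that in iGPA, by a test of the difference itself, in 280 genes upward and 714 downward, and from that in iG+A in 552 upward and 816 downward. Against iGPA the largest differences were 14.02 for Ints2, 6.42 for Dio3os, 6.34 for Evi2b, 5.60 for Ces1d and 5.10 for Tenm2, and -9.62 for Dbx1, -8.02 for Helt, -7.46 for Mybpc1, -7.22 for Wnt10a and -7.14 for Unc80. The qPCR marker Lhx3 differed by -5.79. Against iG+A they were 8.68 for Kcnv1, 8.07 for Sncg, 7.63 for Gh, 7.47 for Gm5797 and 7.45 for Cdcp2, and -8.98 for Dbx1, -8.97 for 9130019O22Rik, -8.39 for Helt, -7.88 for Fbxo40 and -7.54 for Acvr1c. The qPCR marker Otof differed by 5.86. Where a group is listed at 0, as for Dbx1, Helt, Ints2, Evi2b, Gh and Gm5797, the size depends on the pseudocount.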

How the results depend on the processing

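The numbers of genes past the threshold for the iG+P Dox effect, 868 up and 902 down, became 1326 and 1417 with a threshold of 1 on the log2 scale, and with libraries left out in turn ran from 731 to 904 and from 770 to 893. All other alternatives stayed within 1.5 times, including the fit with the replicate block (889 and 952). The median of all genes moved to 0.024 at most under another scaling. Beyond the sum of the single lines, 20 up and 15 down became 40 and 24 with a pseudocount of 5, 27 down under the replicate block, and 5 to 34 up and 3 to 21 down with libraries left out. Against iGPA the 280 up became 427 with that threshold and ranged from 156 to 304 with libraries left out, and the 714 down from 504 to 744. Against iG+A the ranges were 384 to 632 up and 617 to 875 down. Among 4125 values of named genes under alternatives, 0 reversed, 192 lost and 26 gained the call. With a pseudocount of 5 the iG+P calls of Neurog1 (1.01), Barhl1 (1.37), Elmod1 (1.29), Trpm8 (-1.25), Oc90 (-1.24), Tyrobp (-1.25), Dnah5 (1.46), Ttll6 (-1.30), Mpo and Dnmt3l were lost, and in a fit of the compared groups alone those of Elmod1, Hes5, Oc90 and Hbb-bh1; the cause was not tested. Among list counts, with a pseudocount of 5 the falls became 1 for sensory neuron, 2 for blood and 0 for ciliary genes and the ciliary rises 1; with a filter of 50, 1 sensory neuron gene fell, with quantile normalization 2 general neuronal genes, without a variance trend 3 pluripotency genes, and with 75th percentile rescaling 0 ciliary genes. The replicate block changed 2 calls of named genes: Postn, which gained it (-2.04), and Mstn beyond the sum, which lost it (-5.77). With 2 libraries a group and no counts, genes listed at 0 in a group have no defined fold.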
